A study of Mus musculus with 2 samples.

Results

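The genes described here carry the interleukin 6 (IL-6) family signal in liver, and their messenger RNA was measured at day 3 and at day 0 after partial hepatectomy. They are Il6, the receptor genes Il6ra, Il6st, Osmr and Lifr, the kinase genes Jak1 and Jak2, the transcription factor gene Stat3, its feedback inhibitor Socs3, and Il1rn, an interleukin 1 antagonist. All probe sets (groups of array probes read together as a single value) whose only annotated symbol is a member were taken, which gave 28 probe sets for the 10 genes, of 34945 probe sets with 1 symbol for 18193 genes. Whole liver was taken from BALB/c nude mice, which lack a thymus and so make few T cells. There was 1 array for day 3, which the labels call active regeneration, and 1 array for day 0, which they call control. Both labels name partial hepatectomy, the surgical removal of 70% of the liver. The labels give no ages, do not say whether a sample was 1 animal or a pool, and a sham operation was not analysed here. With single arrays there is no replicate and no test, and effects of day, surgery and animal cannot be told apart.

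As background, IL-6 binds its receptor IL6RA, and the complex joins the shared signalling chain gp130, which Il6st encodes. Receptors for oncostatin M and for leukemia inhibitory factor (LIF) pair gp130 with OSMR and LIFR. Janus kinases on these chains phosphorylate STAT3, which enters the nucleus and switches on genes that include Socs3, whose protein binds gp130 and shuts the kinases off. In rodent liver this route is known for the acute phase response and for the first hours after hepatectomy, when IL-6 from Kupffer cells acts on hepatocytes.

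The array value is a MAS5 signal in arbitrary units, and signals of different probe sets cannot be set against each other. A common floor of 68.3, which is the larger of the array medians, replaced any signal below it. A probe set under it on both arrays has no ratio, and 1 under it on a single array has only a bound, written as at least. Of the 28 probe sets, 20 reached the floor on each array, 2 only at day 3, 2 only at day 0 and 4 on neither. A gene is represented by its brightest probe set and called higher or lower at day 3 from 2-fold.

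Of the 10 genes, 3 were at least 2-fold higher at day 3 (Osmr, Socs3 and Il1rn), 2 were at least 2-fold lower (Il6ra and Lifr), 4 differed by less (Il6st, Jak1, Jak2 and Stat3), and Il6 had no ratio. Among all 12634 genes analysed, 12.9% were at least 2-fold higher and 5.62% at least 2-fold lower. At 4-fold, 1 member was higher and 0 were lower, beside 3.27% and 0.76% of all genes, and at 1.5-fold 3 members were higher and 2 lower, beside 24% and 14.2%. By probe set, 6 of the 24 with a ratio were at least 2-fold higher and 5 at least 2-fold lower, beside 11.2% and 6.07% of all 21677 probe sets with a ratio. The median log2 ratio (day 3 over day 0) was 0.30 for the 9 genes with a ratio and 0.08 for all genes. With 9 genes these shares describe the set and do not set it apart from other genes.

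**Figure D1:**
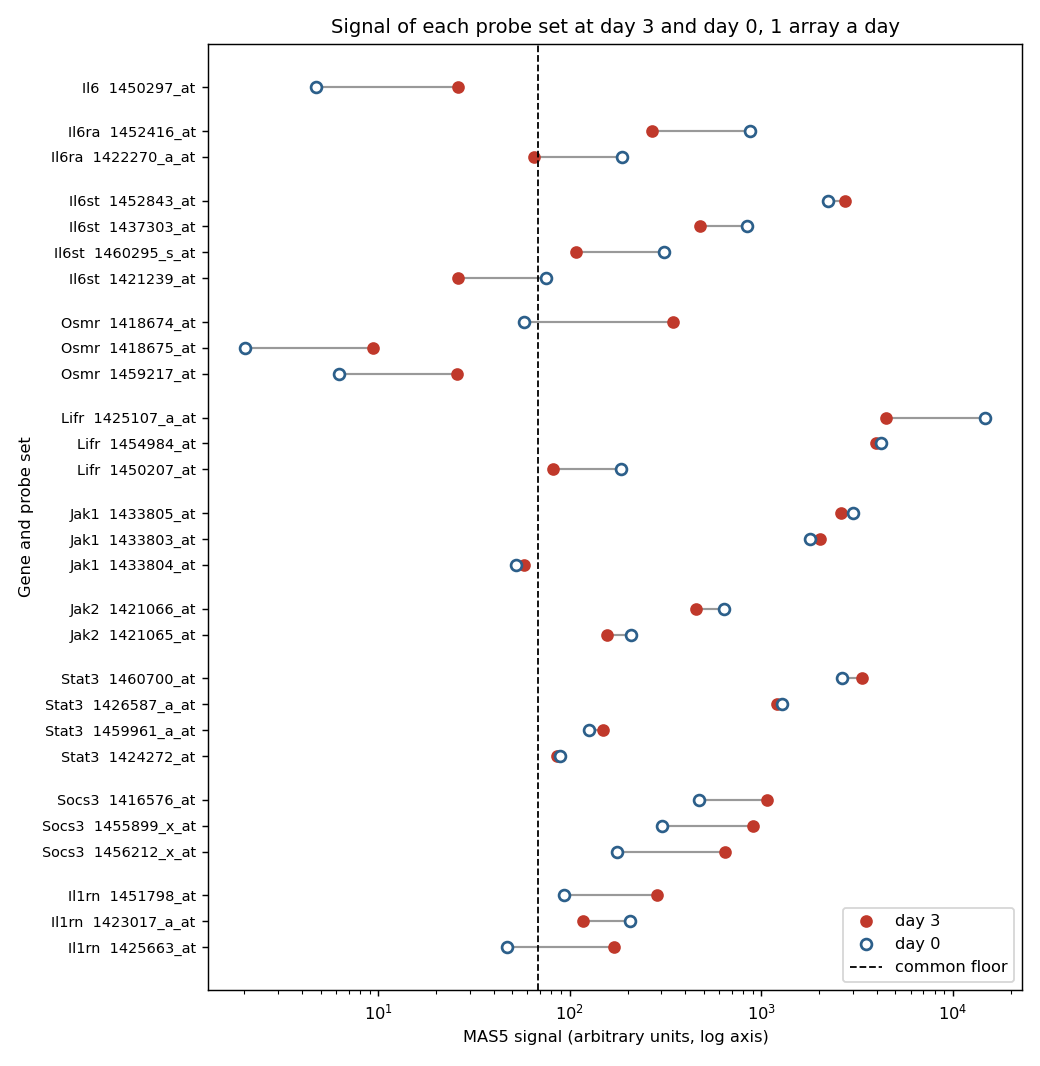
MAS5 signal (log axis, arbitrary units) of the 28 probe sets at day 3 (filled) and day 0 (open), with the common floor of 68.3 as a dashed line. All 3 Socs3 and all 3 Osmr probe sets lie to the right at day 3, both Il6ra and all 3 Lifr probe sets lie to the left, and Il6 lies under the floor on both days.

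Promoters of the 5 genes past 2-fold are shown because STAT, C/EBP and AP-1 factors act in this pathway. The sequences are from RefSeq on GRCm38.p6 (all 10 members matched, with 13 start sites), 250 bases before and 50 after a start, written along the gene's strand. Il1rn and Lifr have several starts, and the one at the lowest coordinate, on the plus strand, is shown. Capitals mark matches on either strand to TTCNNNGAA (STAT), TTGCNNAA (C/EBP) or TGANTCA (AP-1). Socs3 lies on the minus strand at chr11:117969317-117969616, Osmr on the minus strand at chr15:6874264-6874563 and Il1rn at chr2:24336610-24336909. Il6ra lies on the minus strand at chr3:89913147-89913446 and Lifr at chr15:7129322-7129621. The first 3 genes were higher at day 3 and the last 2 lower.
Socs3: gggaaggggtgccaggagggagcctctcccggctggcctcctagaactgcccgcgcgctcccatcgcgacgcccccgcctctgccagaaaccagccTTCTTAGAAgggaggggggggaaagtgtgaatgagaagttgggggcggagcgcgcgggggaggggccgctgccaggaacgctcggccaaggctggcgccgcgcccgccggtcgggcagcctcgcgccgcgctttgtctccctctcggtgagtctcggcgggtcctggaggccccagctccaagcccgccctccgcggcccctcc
Osmr: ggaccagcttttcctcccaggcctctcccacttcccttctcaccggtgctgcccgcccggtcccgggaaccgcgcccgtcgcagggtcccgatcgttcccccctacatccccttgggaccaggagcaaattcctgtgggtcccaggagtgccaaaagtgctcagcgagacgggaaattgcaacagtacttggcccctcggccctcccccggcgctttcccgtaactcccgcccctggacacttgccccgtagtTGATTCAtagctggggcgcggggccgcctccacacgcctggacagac
Il1rn: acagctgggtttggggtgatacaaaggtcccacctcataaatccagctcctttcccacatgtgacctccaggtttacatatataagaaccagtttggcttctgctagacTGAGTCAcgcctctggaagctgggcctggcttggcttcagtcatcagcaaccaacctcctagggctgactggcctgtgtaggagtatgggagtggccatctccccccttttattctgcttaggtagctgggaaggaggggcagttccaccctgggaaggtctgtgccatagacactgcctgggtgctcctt
Il6ra: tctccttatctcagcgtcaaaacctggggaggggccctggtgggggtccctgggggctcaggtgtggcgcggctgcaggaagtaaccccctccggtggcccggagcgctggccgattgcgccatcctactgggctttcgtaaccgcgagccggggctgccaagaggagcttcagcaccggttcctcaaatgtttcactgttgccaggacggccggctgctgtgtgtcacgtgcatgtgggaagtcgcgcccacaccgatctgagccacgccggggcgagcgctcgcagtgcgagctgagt
Lifr: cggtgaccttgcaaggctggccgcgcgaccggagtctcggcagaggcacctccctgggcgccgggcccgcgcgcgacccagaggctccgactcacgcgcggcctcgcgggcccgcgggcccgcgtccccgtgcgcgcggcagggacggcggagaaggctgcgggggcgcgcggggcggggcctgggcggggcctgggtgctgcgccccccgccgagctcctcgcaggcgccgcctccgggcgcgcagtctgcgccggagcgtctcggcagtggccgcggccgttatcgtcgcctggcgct

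The STAT pattern stood in the promoter of 1 of the 10 members, that of Socs3, as TTCTTAGAA from 154 to 146 bases before the start. It stood in 8.30% of all 32851 promoters of that length, so 1 of 10 is near the share of all promoters. The AP-1 pattern, found in 7.81% of all promoters, stood in Osmr as TGATTCA at bases 4 to 10 from the start and in Il1rn as TGAGTCA from 141 to 135 bases before it. The Il6ra and Lifr windows shown held none of the STAT, C/EBP and AP-1 patterns. Those of Il6st, Jak1, Jak2 and Stat3, which differed by under 2-fold and are not shown, held none either. With 10 members the matches are too few to relate to the direction of the genes. NF-kB patterns were tried as well and are left out, because the members that matched depended on how the pattern was written. A stricter form was chosen after the matches of a loose form were seen. Which members matched either form is not reported here. No share of all promoters is given for either form, so the NF-kB matches are not read as a result. The promoter of Il6, which is not shown, held the C/EBP pattern (10.8% of all promoters) from 128 to 121 bases before the start and the AP-1 pattern from 249 to 243. A match describes the letters, and no binding was measured.

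Il6 itself, the cytokine gene, has a single probe set (1450297_at). Its signal was 26.0 at day 3 and 4.74 at day 0. Both values lay under the floor, so no fold is given. Among 10 genes of IL-6 family ligands, 7 had a probe set with 1 symbol and 6 had a ratio, of which 2 were higher by 2-fold or more and none was lower by as much (median log2 ratio −0.17, against 0.08 for all genes). Of all genes, 12.9% were called higher and 5.62% lower, and a count over 6 genes is too small to read against these shares. The number lower was 1 after median centring or loess and 2 after quantile normalisation. Lif, the ligand of LIFR, had a signal of 201 at day 3 and 74.9 at day 0, a 2.69-fold higher value. Clcf1, another ligand of gp130 complexes, was at least 3.44-fold higher (235 at day 3, 17.9 at day 0), with other probe sets at log2 ratios of 0.14 and 0.74. Osm, the ligand of OSMR, went the other way and was at least 1.99-fold lower (27.1 at day 3, 136 at day 0). Il11, the gene of interleukin 11, gave 5.35 at day 3 and 72.5 at day 0, the second only just above the floor. Most of these ligand signals were low, where MAS5 ratios are noisy.

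The receptor chains differed in direction. Osmr, the oncostatin M receptor chain, had the highest ratio of the members. On its brightest probe set (1418674_at) the signal was 347 at day 3 and 57.7 at day 0. The day 0 value lay under the floor, so Osmr was at least 5.08-fold higher. Its other probe sets gave 25.7 at day 3 against 6.24 at day 0 (1459217_at) and 9.44 at day 3 against 2.02 at day 0 (1418675_at). All 3 were higher at day 3, but these last ones lay under the floor on both arrays and support no fold.

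Il6ra, the chain that binds IL-6 itself, was lower at day 3 on both of its probe sets. The brightest (1452416_at) had a signal of 267 at day 3 and 869 at day 0, a 3.25-fold lower value. The other (1422270_a_at) had 65.4 at day 3 and 187 at day 0 and was at least 2.73-fold lower. Unlike Lifr and Il6st, the probe sets of Il6ra were past 2-fold without exception.

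Lifr, the LIF receptor chain, had probe sets that disagreed in size. The brightest (1425107_a_at) had a signal of 4464 at day 3 and 14752 at day 0, which is 3.30-fold lower. A second bright probe set (1454984_at) had 3969 at day 3 and 4195 at day 0, a 1.06-fold lower value. The dimmest (1450207_at) had 82.1 at day 3 and 186 at day 0, which is 2.26-fold lower. All 3 were lower at day 3, and 2 of them passed 2-fold. The log2 ratios of the brightest 2 differed by 1.64, and a difference as large was seen in 1.71% of the 4380 genes with 2 probe sets above the floor on both arrays. The call of Lifr rests on the first probe set, since without probe sets whose names mark several transcripts (_a_at, _s_at and _x_at) the log2 ratio was −0.08, and the mean over its probe sets was −0.99. As background, mouse liver makes a soluble form of LIFR from an alternative transcript. Which form each probe set reads was not analysed here.

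Il6st, which encodes the shared chain gp130, also split by probe set. Its brightest (1452843_at) had a signal of 2736 at day 3 and 2215 at day 0, a 1.24-fold higher value. The next (1437303_at) had 477 at day 3 and 837 at day 0, which is 1.76-fold lower. The probe set 1460295_s_at had 107 at day 3 and 309 at day 0 and was 2.88-fold lower. The dimmest (1421239_at) had 26.1 at day 3 and 74.9 at day 0 and was at least 1.10-fold lower. So 3 of 4 probe sets were lower at day 3 and the brightest was higher. The brightest 2 differed by 1.12 in log2 ratio, and 7.53% of those genes differed by as much. The mean over the probe sets gave Il6st a log2 ratio of −0.54, the opposite sign to the 0.30 of its brightest. That mean takes the dimmest probe set at its bound of −0.13.

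Within the list of 9 receptor chains, only these 4 members had a ratio. Cntfr, Il27ra and Il31ra lay under the floor on both arrays, and Il11ra1 lacked a probe set with a single symbol and was not analysed here. Beside the ratios of all members, higher and lower alike, stands a measure of RNA or labelling quality that moved with the day. Among the array's controls are bacterial transcripts, of which some are mixed in ahead of labelling as poly-A spikes. In 8 of 9 of their probe set pairs the 3′ to 5′ signal ratio was larger at day 3 than at day 0, and over all 9 the factor (day 3 over day 0) ran between 0.135 and 2.90 with a median of 2.08. The pair with 0.135, for the trp gene, went the other way. The dap, lys, phe and thr genes are each read by more than 1 pair, so the 9 pairs are not independent. In log2 ratio the 5′ ends of the 9 had a median of −1.08 and the 3′ ends −0.12. Among 5 mouse control pairs the factor was above 1 in 3 and ran between 0.594 and 22.2, with a median of 1.91. Gapdh had 1.91 and beta-actin 2.09, while 18S ribosomal RNA had 0.988 and pyruvate carboxylase 0.594. Over 8 hybridisation control pairs the factor ran between 0.879 and 1.01, with a median of 0.972. Where the probe sets of the members lie along their transcripts was not analysed. The part of the 3′ to 5′ difference in the results was not tested.

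**Figure D2:**
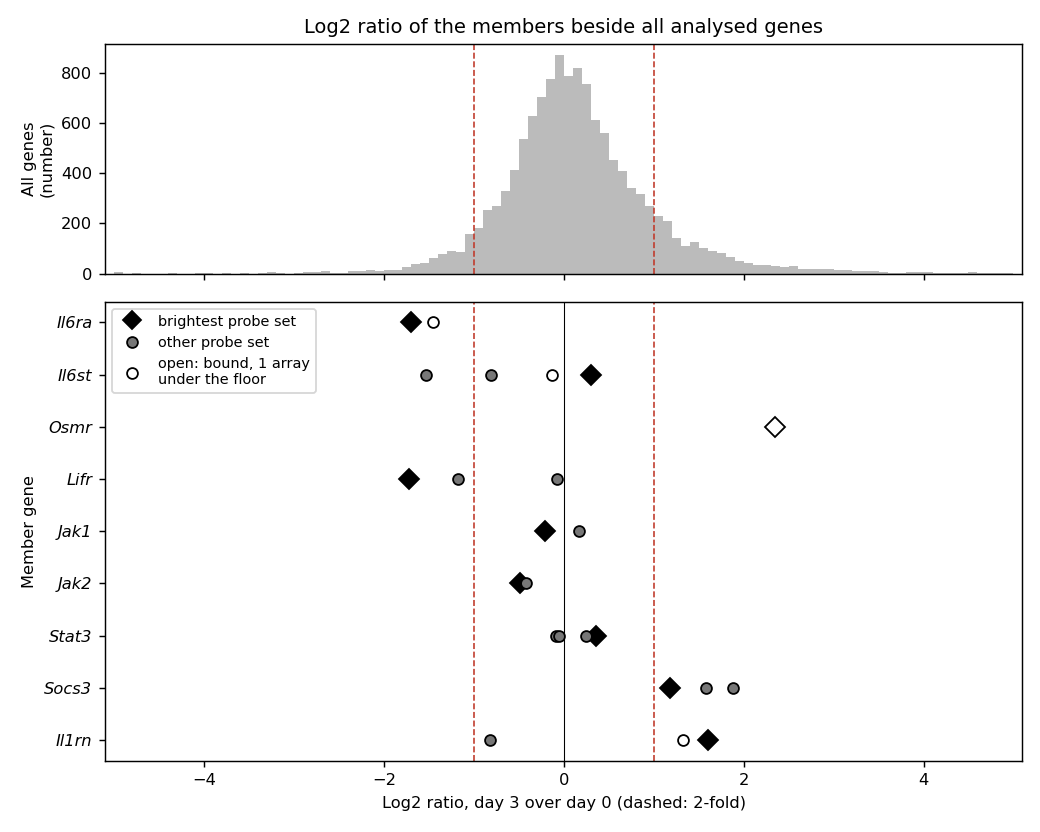
Log2 ratio of signal, day 3 over day 0, for the 12634 analysed genes (upper panel, number of genes, values beyond 5 in either direction in the end bins) and for the 24 probe sets of 9 members with a ratio (lower panel). Diamonds are each gene's brightest probe set, open symbols are bounds and dashed lines mark 2-fold. The Socs3 probe sets lie between 1.18 and 1.89 and those of Stat3 between −0.09 and 0.36, while those of Lifr, Il6st and Il1rn spread widely.

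The kinases and STAT3 differed little between the days. Jak1, a kinase bound to gp130, had 2592 at day 3 and 2999 at day 0 on its brightest probe set (1433805_at, 1.16-fold lower). On 1433803_at it had 2022 at day 3 and 1801 at day 0 (1.12-fold higher), and its dim probe set 1433804_at gave 57.7 at day 3 and 52.2 at day 0. Its probe sets thus pointed both ways, within a small range, and its log2 ratio of −0.21 became 0.09 when the arrays were scaled to the hybridisation spikes.

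Jak2, the kinase also used by the growth hormone receptor, was lower on both probe sets but under 2-fold. The signals were 455 at day 3 and 639 at day 0 on 1421066_at (1.40-fold lower), and 157 at day 3 and 209 at day 0 on 1421065_at (1.33-fold lower). The 2 ratios differed by 0.07 on the log2 scale. Of genes with 2 probe sets above the floor on both arrays, 88.0% differed by as much or more.

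Stat3, the transcription factor of the pathway, had 3366 at day 3 and 2629 at day 0 on its brightest probe set (1460700_at, 1.28-fold higher). The probe set 1426587_a_at had 1205 at day 3 and 1279 at day 0, a 1.06-fold lower value. The dimmer 1459961_a_at had 148 at day 3 and 125 at day 0, and 1424272_at had 85.2 at day 3 and 88.3 at day 0. All 4 log2 ratios lay between −0.09 and 0.36, the narrowest spread of the members with more than 2 usable probe sets. These are transcript levels, and the phosphorylation that activates STAT3 was not measured. In the list of Janus kinases and STAT factors, none of the 9 genes with a ratio passed 2-fold (median −0.03), and 1 was 2-fold higher after scaling to the hybridisation spikes. Among all genes 12.9% were higher and 5.62% lower by as much, and with 9 genes the list is not set apart from them. Jak3, a kinase of leukocytes, was 1.68-fold higher (210 at day 3, 125 at day 0). Tyk2, another gp130 kinase, had 524 at day 3 and 490 at day 0, with another probe set at −1.39. Stat5b, the factor of the growth hormone response, was 1.59-fold lower (652 at day 3, 1034 at day 0), with another probe set at 0.83.

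Socs3, the feedback inhibitor and a direct STAT3 target, was at least 2-fold higher on all 3 of its probe sets. Its brightest (1416576_at) had a signal of 1070 at day 3 and 471 at day 0, a 2.27-fold higher value. The others gave 904 at day 3 and 302 at day 0 (1455899_x_at, 2.99-fold), and 648 at day 3 and 176 at day 0 (1456212_x_at, 3.69-fold). The brightest gave the smallest ratio, and the _x_at names of the others mark probes that can bind related transcripts. No other member was past 2-fold in the same direction on 3 probe sets above the floor on both arrays.

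Other inhibitors of the pathway went both ways. Of 18 genes of feedback and phosphatases with a ratio, 4 were at least 2-fold higher, Socs3 included, and 2 at least 2-fold lower, or 1 lower after scaling to the hybridisation spikes (median 0.08, as for all genes). Among all genes 12.9% were higher and 5.62% lower by as much, and with 18 genes the list is not set apart from them. Socs2 and Cish, inhibitors that growth hormone induces through STAT5, were lower. Socs2 had 490 at day 3 and 1497 at day 0 (3.05-fold lower), with other probe sets from −1.15 to 0.22, and Cish had 695 at day 3 and 1432 at day 0 (2.06-fold lower). Socs5, another member of the inhibitor family, was 2.11-fold higher (558 at day 3, 264 at day 0), with another probe set at 2.41. Ptpn1, a phosphatase that acts on JAK2, was 2.22-fold higher (1286 at day 3, 581 at day 0), with another probe set at 0.55. Ptprc, which encodes the leukocyte phosphatase CD45, was 3.11-fold higher (1035 at day 3, 333 at day 0). Socs1 lay under the floor on both arrays, with 39.9 at day 3 and 5.63 at day 0.

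Il1rn encodes the interleukin 1 receptor antagonist, which IL-6 can induce in human liver cells as an acute phase protein, and its probe sets disagreed. The brightest (1451798_at) had a signal of 285 at day 3 and 93.7 at day 0, a 3.04-fold higher value. The probe set 1425663_at had 171 at day 3 and 47.0 at day 0 and was at least 2.50-fold higher. The probe set 1423017_a_at had 117 at day 3 and 207 at day 0, which is 1.77-fold lower. The brightest 2, at log2 ratios of 1.61 and −0.82, differed by 2.43, and 0.251% of genes differed by as much. The mean over the 3 probe sets was 0.70, under 2-fold. As background, secreted and intracellular forms of the antagonist start from alternative first exons, and RefSeq lists several starts for Il1rn. The probe sets were not assigned to these forms.

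Around Il1rn, 4 of 11 genes of the IL-1 family and its receptors were at least 2-fold higher, Il1rn included, and 2 at least 2-fold lower (median 0.18, against 0.08 for all genes). The shares of all genes were 12.9% higher and 5.62% lower, and with 11 genes the list is not set apart from them. Il33, an alarm cytokine of the family, was 6.47-fold higher (622 at day 3, 96.1 at day 0). Il18bp, which neutralises interleukin 18, was 2.78-fold higher (353 at day 3, 127 at day 0). Il1a, which encodes interleukin 1 alpha, was at least 2.17-fold higher (148 at day 3, 63.6 at day 0). Il18 itself was 2.67-fold lower (596 at day 3, 1594 at day 0). Il1rap, the co-receptor chain, was 3.11-fold lower (2565 at day 3, 7978 at day 0) on its brightest probe set, with others at −0.27 and 0.01. Il1b had 111 at day 3 and 118 at day 0, and the receptor gene Il1r1 had 1379 at day 3 and 1192 at day 0.

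The genes downstream of the pathway were also mixed. Of 37 STAT3 responsive and acute phase genes with a ratio, 14 were at least 2-fold higher and 2 at least 2-fold lower, with 21 under 2-fold (median 0.33, against 0.08 for all genes). Of all genes, 12.9% were at least 2-fold higher and 5.62% at least 2-fold lower. The number lower was 1 after quantile normalisation, loess or spike scaling. The list was drawn with earlier results of these data known, so its direction is not independent evidence. Lcn2, an iron-siderophore binding protein, was 328-fold higher (29724 at day 3, 90.7 at day 0). The metallothionein genes Mt2 and Mt1, which also respond to metals and glucocorticoids, were 25.7-fold and 22.7-fold higher. Orm2, an acute phase glycoprotein gene, was 11.6-fold higher (1552 at day 3, 134 at day 0), and Saa1, serum amyloid A, 5.97-fold higher (12883 at day 3, 2159 at day 0). Cebpd, the C/EBP factor that STAT3 can induce, was 2.23-fold higher (979 at day 3, 439 at day 0), with another probe set at 0.60.

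Further genes of the STAT3 responsive and acute phase list, named here, were under 2-fold or lower at day 3. Fgg, a fibrinogen chain gene, had 37855 at day 3 and 39692 at day 0, and Hp, haptoglobin, had 38072 at day 3 and 40197 at day 0. Their signals were among the highest of the listed genes, and whether the array still resolves a rise there was not tested. Junb, an immediate early factor gene, had 431 at day 3 and 391 at day 0, and Cebpb had 9160 at day 3 and 11191 at day 0. Pim1, a kinase gene induced by STAT3, was 1.59-fold lower (559 at day 3, 889 at day 0). Crp, C-reactive protein, was 2.50-fold lower (6438 at day 3, 16074 at day 0), and Hamp, the iron hormone hepcidin that STAT3 can activate, 2.17-fold lower (17362 at day 3, 37710 at day 0).

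**Figure D3:**
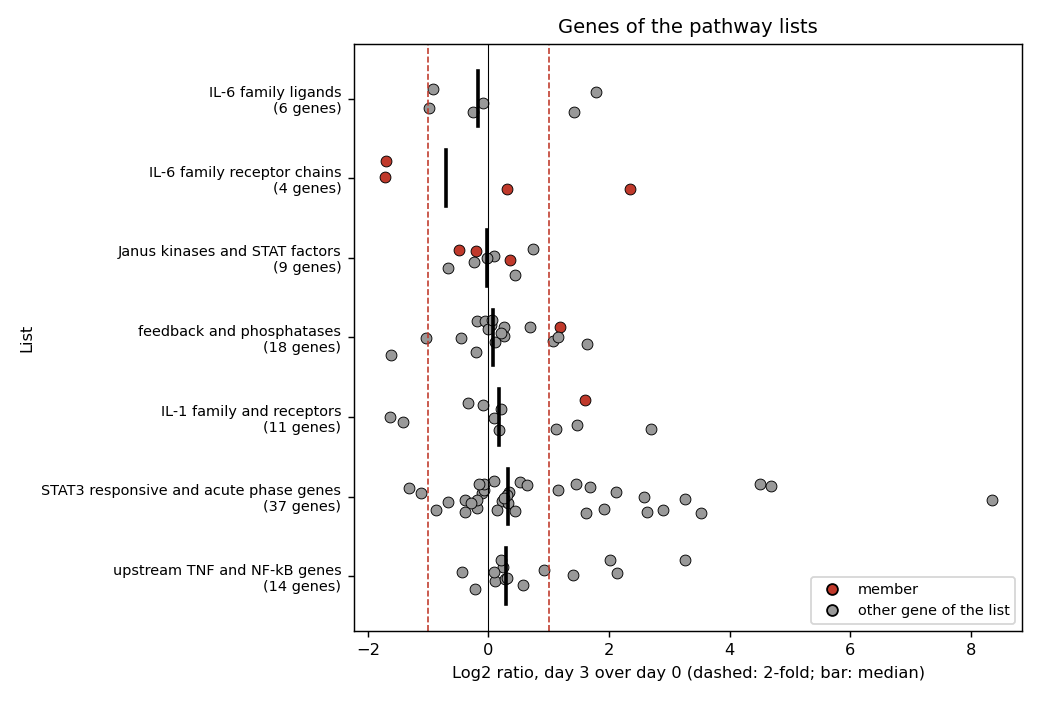
Log2 ratio of signal, day 3 over day 0, of each gene with a ratio in the 7 pathway lists, with members in red, other genes in grey, the median as a bar and 2-fold as dashed lines. The Janus kinase and STAT list lies within 2-fold, the 4 receptor chains lie between −1.72 and 2.35, and 14 of 37 STAT3 responsive genes lie beyond 2-fold to the right.

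Because whole liver was measured, fewer cells of a type and less RNA per cell cannot be told apart, and markers of other cells moved with the day beside these genes. Of 12 Kupffer cell and macrophage markers, 8 were higher by 2-fold or more and none was lower by as much, and their summed signal was 24133 at day 3 and 9645 at day 0. Such a sum is weighted to its brightest probe sets and does not describe each marker. Of all genes, 12.9% were at least 2-fold higher and 5.62% at least 2-fold lower. The shorter lists that follow are too small to read against these shares. Of 5 cholangiocyte markers 4 were higher (sum 1304 at day 3, 351 at day 0), of 8 stellate cell markers 3 (28505 at day 3, 16039 at day 0) and of 3 monocyte markers 2 (701 at day 3, 223 at day 0). Of 11 neutrophil markers with a probe set, 6 lay under the floor on both arrays, Mpo and Cxcr2 among them, and 2 of the other 5 were higher (sum 1461 at day 3, 479 at day 0). These were S100a8 (585 at day 3, 60.6 at day 0) and S100a9 (550 at day 3, 110 at day 0), while Csf3r, Ngp and Elane did not reach 2-fold after the floor. None of 7 hepatocyte markers passed 2-fold (221510 at day 3, 292546 at day 0), nor did any of 7 endothelial markers (7373 at day 3, 10592 at day 0). Of 7 B and T cell markers with a probe set 4 lay under the floor on both arrays, Cd3e among them, and the other 3 were under 2-fold (227 at day 3, 274 at day 0). Of 5 erythroid and platelet markers with a probe set, 3 had a ratio, 1 of them higher and 1 lower (3529 at day 3, 9350 at day 0). That sum is mostly Alas2, an enzyme gene of red cell precursors (2783 at day 3, 8932 at day 0), while the platelet gene Pf4 was 3.26-fold higher (472 at day 3, 144 at day 0) and Itga2b had 274 at day 3 and 273 at day 0. The part of these shifts in the values of Osmr, Socs3, Il1rn and Ptprc was not tested.

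**Figure D4:**
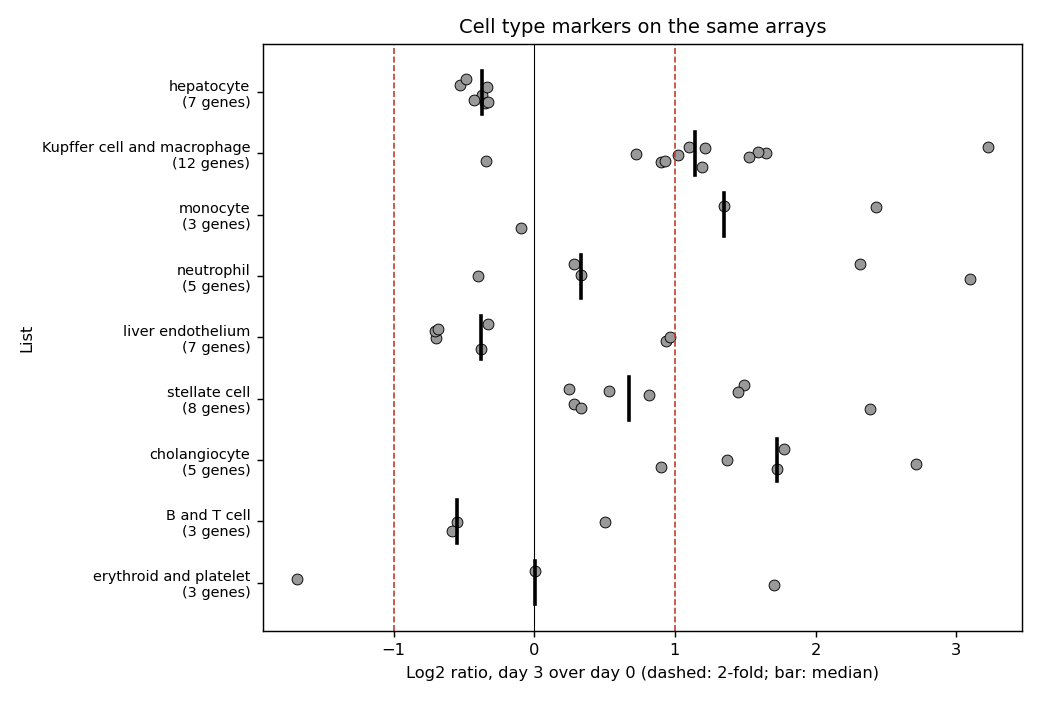
Log2 ratio of signal, day 3 over day 0, of each cell type marker with a ratio, by list, with the median as a bar and 2-fold as dashed lines. The 7 hepatocyte markers lie close together just below 0, while 8 of 12 Kupffer cell and macrophage markers and 4 of 5 cholangiocyte markers lie beyond 2-fold to the right.

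The ratios were recomputed under 10 other settings of scaling, floor and probe set choice. Some of these left a given ratio exactly as reported, so the counts below include settings that did not test it. Socs3 kept 1.18 with a 25th or 75th percentile floor and when limited to genes above the floor on both arrays. Without _a_at, _s_at and _x_at probe sets its ratio was also 1.18. Il6ra kept −1.70 in these settings, except with the 75th percentile floor (−1.04). Osmr kept 2.35 under median centring, hybridisation spike scaling, the mean over probe sets, and without the probe sets so named. Socs3 stayed at least 2-fold higher in all 10 (log2 ratio 1.03 to 1.55) and Il6ra at least 2-fold lower in all 10 (−1.89 to −1.04). Osmr was at least 2-fold higher in the 8 settings that left it a ratio (2.23 to 2.59), and Il1rn in 8 of 9 (0.70 to 1.91). Lifr was at least 2-fold lower in 8 of 10 (−1.74 to −0.08). Stat3, Jak2, Il6st and Jak1 stayed under 2-fold in all 10.

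**Figure D5:**
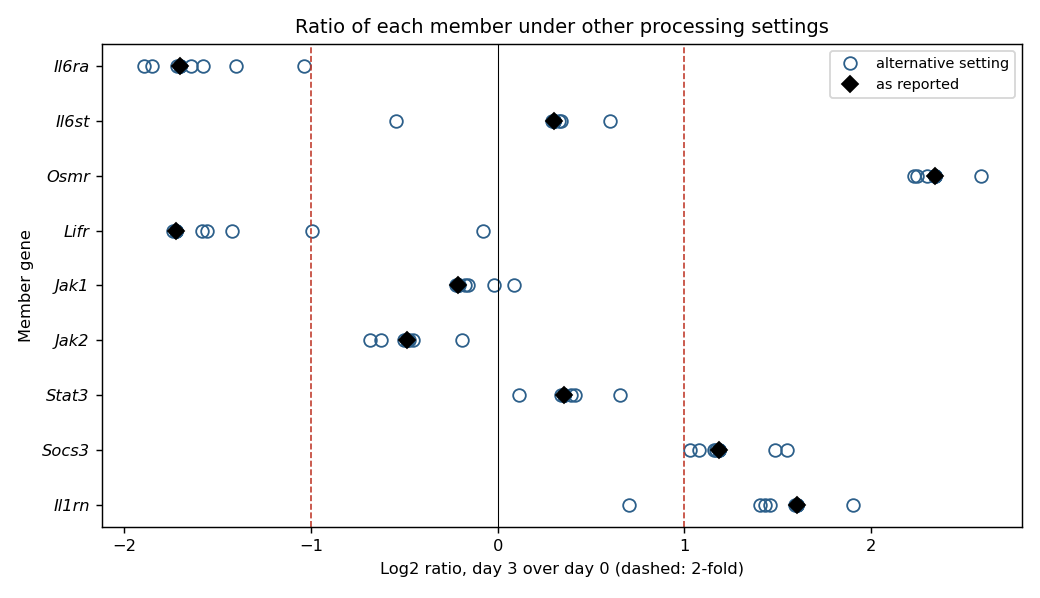
Log2 ratio, day 3 over day 0, of the 9 members with a ratio as reported (diamonds) and under the alternative settings (open circles), with 2-fold as dashed lines. The circles of Socs3, Osmr and Il6ra stay beyond 2-fold, while 2 of Lifr and 1 of Il1rn lie inside it. For Il6st and for Jak1, 1 circle lies on the other side of 0.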

How the data were processed

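Per the labels' protocols, Trizol was used to extract RNA from whole liver, and 5 µg of total RNA went into biotin-labelled cRNA for an Affymetrix mouse array. The deposited values are intensity values per probe set on a linear scale, made by the authors with GCOS and MAS5, per the submitters' processing notes. Not given in the sources used here are their versions, the scaling target and a genome build. With 2% trimmed from each end, the mean was 500.0 on both arrays, and the medians were 68.3 at day 3 and 67.6 at day 0. Because MAS5 takes the mismatch signal off, its low values are noisy. The number of arrays limits the precision.

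Of 45101 probe sets, 34945 had 1 gene symbol in the array annotation, 932 had several, 9160 had no entry and 64 were controls. Both arrays were used as deposited. The floor, the 2-fold threshold and the brightest probe set (highest mean log2 signal after the floor) follow the text above. For the spread between probe sets, the difference of a gene's brightest 2 was taken and its SD divided by the square root of 2.

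Named were all members, up to 4 genes a direction past 2-fold of each list, and 22 fixed pathway genes. Marker genes named are from the marker lists. Some listed genes are not reported here. The members, lists and rules were chosen with earlier results of these data known. Other settings tried were 4 scalings (median centring, quantile normalisation, loess with a fraction of 0.3, and the hybridisation spikes), a floor at the 25th or 75th percentile, 16 added in place of a floor, only genes that reach the floor on each array, the mean over probe sets, no probe sets named _a_at, _s_at or _x_at, and 1.5-fold or 4-fold as threshold. Simulated data with known ratios were used to test the steps. Python 3.11.15, pandas 2.3.3, numpy 2.4.6 and statsmodels 0.14.6 were used.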

Additional observations from a re-analysis of the deposited data

How the results depend on the processing

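The number of members at least 2-fold higher at day 3 (3 as reported) was 1 when the 75th percentile served as floor and 1 at a threshold of 4-fold. The number at least 2-fold lower (2 as reported) was 1 with the mean over probe sets, 1 without probe sets named _a_at, _s_at or _x_at, and 0 at 4-fold. Under median centring, quantile normalisation, loess and spike scaling, 3 members were higher and 2 lower each time. Among all genes, the higher ones were 69.6% of those past 2-fold as reported, 58.2% after quantile normalisation and 86.7% after spike scaling, with which the median gene had a log2 ratio of 0.37. The counts of the pathway lists that moved by over 1.5 times follow, each given as its new value against the reported one. With the 75th percentile as floor, 0 ligand, 0 receptor and 0 IL-1 family genes were higher, against 2, 1 and 4, since more signals are then raised to the floor. With the 25th percentile, 1 ligand gene was higher against 2, 2 were lower against 0, and 7 TNF and NF-kB genes were higher against 4. With 16 added and no floor, 2 ligand genes were lower against 0 and 7 TNF and NF-kB genes higher against 4. With only genes that reach the floor on each array, 1 ligand gene was higher against 2 and 0 receptor genes against 1. With the mean over probe sets, 1 ligand gene was higher against 2, and 1 receptor, 1 feedback and 1 IL-1 family gene were lower against 2 each. Without probe sets named _a_at, _s_at or _x_at, 1 receptor gene was lower against 2 and 2 feedback genes higher against 4. Ligand genes lower, 0 as reported, were 1 with median centring, 1 with loess and 2 with quantile normalisation. STAT3 responsive genes lower, 2 as reported, were 1 with quantile normalisation, loess or spike scaling. With spike scaling, 1 kinase or STAT gene was higher against 0 and 1 feedback gene lower against 2. At 1.5-fold, 1 kinase or STAT gene was higher and 1 lower against 0 each, 2 ligand genes were lower against 0 and 4 STAT3 responsive genes lower against 2. At 4-fold, 9 STAT3 responsive genes were higher against 14, 1 IL-1 family gene against 4, 0 ligand genes against 2 and 0 feedback genes against 4, and 0 genes of the receptor, feedback, IL-1 family and STAT3 responsive lists were lower against 2 in each. The causes of the other shifts were not tested. Of 87 recomputed member ratios, 82 moved by less than the SD between probe sets (0.435). That SD is between probe sets read on the same arrays, so it does not measure the spread between animals or replicate arrays. Some settings leave a given ratio as it was, so the 82 include ratios that could not move. The log2 ratio of Il6 was 0.40 when the 25th percentile served as floor and 1.02 with no floor and 16 added, both from signals under the reported floor. Signal over background limits Il6, Osmr at day 0 and the dim probe sets most. No paired analysis was possible because there was 1 array a day.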

Other observations

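Tumour necrosis factor and NF-kB signalling act upstream of IL-6 production in Kupffer cells. Of 14 genes of the TNF and NF-kB route with a ratio, 4 were at least 2-fold higher at day 3 and none 2-fold lower. Their median log2 ratio was 0.29, against 0.08 for all genes. Among all genes 12.9% were at least 2-fold higher and 5.62% at least 2-fold lower, and 14 genes are too few to set the list apart. It was drawn with earlier results of these data known, so its direction is not independent evidence. Cd14, the endotoxin co-receptor, was 9.61-fold higher (1918 at day 3, 199 at day 0), beside macrophage markers whose summed signal was 24133 at day 3 and 9645 at day 0. The NF-kB subunit gene Nfkb2 was 4.39-fold higher (388 at day 3, 88.5 at day 0), with another probe set at 0.28. Tnfaip3, a feedback inhibitor of NF-kB, was 4.04-fold higher (943 at day 3, 233 at day 0), and Nfkbiz, a nuclear cofactor, 2.65-fold higher (1112 at day 3, 419 at day 0), with others at 0.30 and 0.76. When the 25th percentile served as floor, or 16 was added in place of a floor, 7 of these genes were at least 2-fold higher.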
